A study of Homo sapiens with 8 samples.

Results

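Open chromatin was followed at the promoters of 7 genes of antigen presentation by MHC class I in U2OS cells, a human osteosarcoma line. The genes were the heavy chain genes HLA-B, HLA-C, HLA-E, HLA-F and HLA-G, the light chain gene B2M and NLRC5, and they were taken by name from the 19970 protein-coding genes that GENCODE 44 places on chromosomes 1 to 22 and X. FAIRE-seq, which recovers DNA that is free of nucleosomes from fixed and sonicated chromatin, had been run on 8 libraries from 4 single clones. The WT clones were WT_4 and WT_5, and the clones with a knockout of the zinc finger gene ZBTB48 were KO_C5 and KO_D2. Each clone gave 1 untreated library and 1 library after 250 U/ml IFNγ, for which the labels give 24 hours and a figure legend of the study a longer time, so the duration is uncertain. Peak lists do not show whether ZBTB48 itself was lost. A clone is 1 line of cells, so each genotype was represented by 2 clones and the spread between them includes clonal differences.

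MHC class I molecules carry peptides from inside the cell to its surface, where CD8 T cells and natural killer cells inspect them. HLA-B and HLA-C are classical heavy chains with broad peptide display, HLA-E, HLA-F and HLA-G are nonclassical heavy chains, and B2M is the light chain that the heavy chains need to fold. NLRC5 is a transactivator of class I genes and the counterpart of CIITA, the master regulator of class II genes. It has no DNA-binding domain of its own and acts through RFX, CREB and NF-Y proteins bound at the promoters. IFNγ raises class I expression in many cell types through IRF1 and NLRC5, among others.

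The reference promoters were searched for short motifs of regulatory factors, and the 5 members with an entry in the RefSeq promoter table (GRCh38.p14) are printed for that reason. No RFX motif was searched, and whether any match is used in these cells was not tested. Each run holds 250 bases before and 50 bases from the start, 5′ to 3′ on the gene's strand, with matches to the searched motifs in capitals. They lie at chr6:31357130-31357429 (minus strand) for HLA-B, chr6:31272043-31272342 (minus strand) for HLA-C, chr6:29723184-29723483 (plus strand) for HLA-F, chr6:29827575-29827874 (plus strand) for HLA-G and chr15:44711267-44711566 (plus strand) for B2M. NLRC5 and HLA-E are named only.
HLA-B: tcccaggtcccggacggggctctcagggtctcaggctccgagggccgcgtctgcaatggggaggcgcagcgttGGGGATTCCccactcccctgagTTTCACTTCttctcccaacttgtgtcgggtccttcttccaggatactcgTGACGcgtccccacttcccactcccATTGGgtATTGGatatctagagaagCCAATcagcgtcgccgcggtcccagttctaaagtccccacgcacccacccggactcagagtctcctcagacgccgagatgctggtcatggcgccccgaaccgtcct
HLA-C: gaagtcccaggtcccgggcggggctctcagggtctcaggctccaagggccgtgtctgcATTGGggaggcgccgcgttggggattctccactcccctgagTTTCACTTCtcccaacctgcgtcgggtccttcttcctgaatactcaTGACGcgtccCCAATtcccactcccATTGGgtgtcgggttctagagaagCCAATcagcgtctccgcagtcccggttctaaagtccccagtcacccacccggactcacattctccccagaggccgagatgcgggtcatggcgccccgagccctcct
HLA-F: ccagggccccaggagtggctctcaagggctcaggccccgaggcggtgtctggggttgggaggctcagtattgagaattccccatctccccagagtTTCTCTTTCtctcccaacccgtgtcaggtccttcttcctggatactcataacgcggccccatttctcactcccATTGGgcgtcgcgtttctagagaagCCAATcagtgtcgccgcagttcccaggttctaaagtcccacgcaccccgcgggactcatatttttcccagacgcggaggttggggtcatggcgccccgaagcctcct
HLA-G: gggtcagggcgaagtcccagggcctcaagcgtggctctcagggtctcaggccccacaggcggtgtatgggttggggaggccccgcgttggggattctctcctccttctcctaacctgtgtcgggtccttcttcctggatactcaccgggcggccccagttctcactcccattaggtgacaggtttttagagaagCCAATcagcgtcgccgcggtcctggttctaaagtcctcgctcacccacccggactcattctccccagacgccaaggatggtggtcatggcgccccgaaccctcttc
B2M: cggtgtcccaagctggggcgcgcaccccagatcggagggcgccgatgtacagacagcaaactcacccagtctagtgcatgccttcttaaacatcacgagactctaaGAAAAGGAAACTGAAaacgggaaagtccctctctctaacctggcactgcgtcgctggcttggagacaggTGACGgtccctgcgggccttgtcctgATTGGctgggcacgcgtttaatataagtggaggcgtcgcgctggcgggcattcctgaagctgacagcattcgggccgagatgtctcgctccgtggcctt

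The motifs were searched on both strands and may overlap. The NF-Y box CCAAT was present in all 5 printed promoters, against 34.6% of 35116 promoters of the same length. The match nearest the start lay at -56 to -52 in HLA-B, HLA-C and HLA-G, at -57 to -53 in HLA-F and at -49 to -45 in B2M. The CRE core TGACG, a binding sequence of CREB proteins, was found in HLA-B, HLA-C and B2M and in 24.6% of all promoters. The interferon-stimulated response element was searched in a short form, GAAANNGAA, which matched in HLA-F once and in B2M at 2 overlapping places, against 8.11% of all promoters. The other order of its parts, GAANNGAAA, was added after the promoters had been read and matched in HLA-B and HLA-C, against 7.66% of all promoters. Enhancer A, GGGGATTCC, an NF-kB element, matched in HLA-B and in 0.285% of all promoters. TTAGGG, the telomere hexamer bound by ZBTB48, and TTCNNNGAA, the GAS element, had no match in these 5 windows and matched in 9.05% and 7.66% of all promoters. The printed HLA-G window, at the canonical start, held the NF-Y box alone among the motifs searched. HLA-G has 3 RefSeq starts, and the windows at those 858 and 1351 bp from the canonical start held no match. Aligned over their length, HLA-B and HLA-C shared 90.9% of 296 aligned bases and HLA-B and HLA-F 82.4% of 295.

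**Figure D1:**
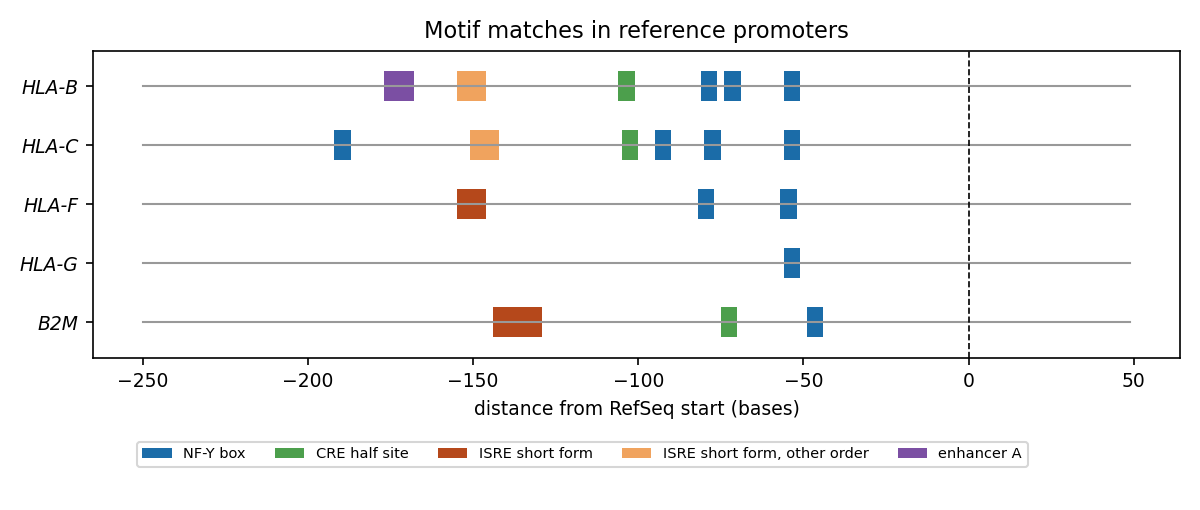
Motif matches along the reference promoters of HLA-B, HLA-C, HLA-F, HLA-G and B2M, with distance from the RefSeq start in bases on the horizontal axis and 1 coloured block per match. The NF-Y box recurs close to the start in all 5 promoters, and HLA-G carries no other match.

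A promoter was called open in a library where a peak overlapped 1 kb either side of any annotated start. Fold enrichment is the fragment pileup at the peak summit over the local background, with 1 added to each, as the peak caller gave it. The percentile is the rank of the peak's −log10 p within its own list, with 0 for no peak. The lists held 16730 to 37533 peaks, so a missing peak means that none was called at that depth, not closed chromatin. Of the osteoblast and mesenchymal genes, 2 of 7 (RUNX2 and COL1A1) had a peak in all 8 libraries. So did 2 of 3 epithelial genes (EPCAM and KRT8) and 0 of 7 leukocyte genes. Of 7 osteoblast and mesenchymal genes 2 to 5 had a promoter peak in a library, of 3 epithelial genes 2 to 3, and of 7 leukocyte genes 0 to 2.

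In total 73 peaks, of 195897 in the lists, lay in or within 10 kb of the 7 genes, and they joined into 18 sites. Of these sites 8 had a peak in IFNγ libraries alone and 0 in untreated libraries alone. Over all 52105 sites, the shares were 28.7% and 16.4%. Of the 8 member sites with peaks in IFNγ libraries alone, 6 had a peak in 1 library alone. No such site had a peak in treated WT_4. Their peaks came from treated WT_5, KO_C5 and KO_D2, whose lists were each longer than the untreated list of the same clone. The count of members with an open promoter was 4 of 7 in untreated WT_4, 6 in WT_5, 2 in KO_C5 and 4 in KO_D2. After IFNγ it was 4 in WT_4, 6 in WT_5, 6 in KO_C5 and 7 in KO_D2. The counts thus stayed level in both WT clones and rose in both KO clones. Over all clones they went from 4.00 ± 1.63 to 5.75 ± 1.26 members (SD, n = 4). The same contrast held over all protein-coding genes with a promoter peak, of which 3.09% were gained in KO and 0.149% in WT clones. Gained means a peak in both treated and neither untreated library of a genotype. The KO_C5 and KO_D2 lists themselves were longer after IFNγ, with 27457 against 19255 and 24727 against 16730 peaks. The WT_5 list was longer too, with 37533 against 29567 peaks, and the WT_4 list was shorter, with 18913 against 21715. With every list cut to its 16730 strongest peaks the counts were still 2 and 6 in KO_C5 and 4 and 6 in KO_D2. They were 3 and 3 in WT_4 and 6 and 6 in WT_5. HLA-E alone among the members was open in all 8 libraries, which held for 70.5% of the 14737 protein-coding genes with a promoter peak in some library.

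**Figure D2:**
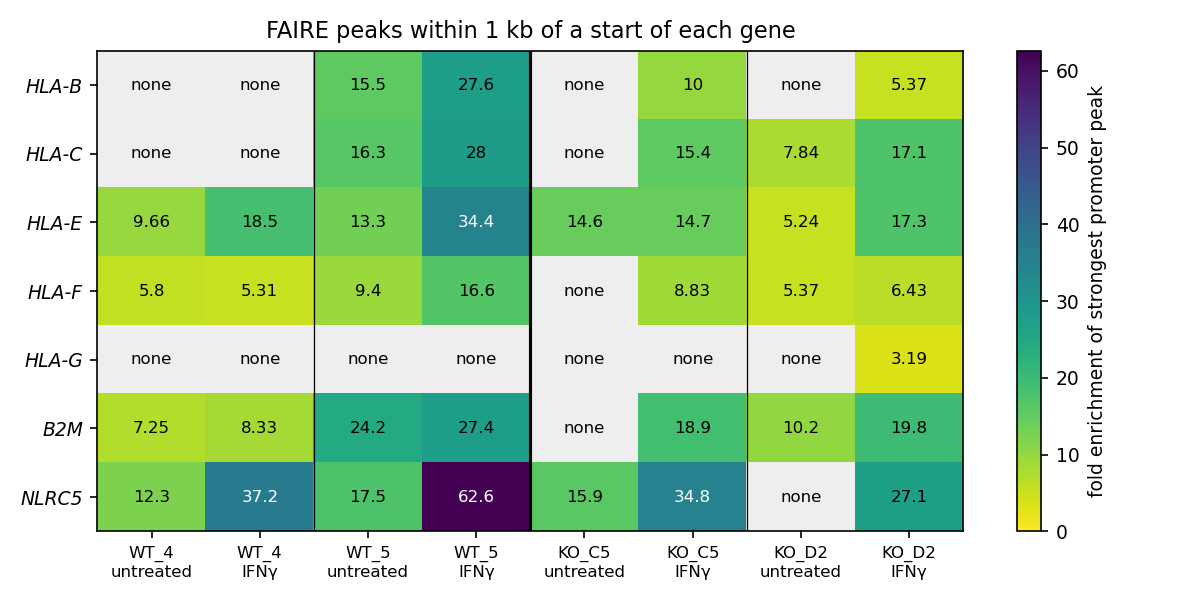
Fold enrichment of the strongest promoter peak of each gene (rows) in each library (columns, by clone and treatment), with darker colours for higher values and grey for no peak. NLRC5 reaches 62.6 in WT_5 after IFNγ, and HLA-G has a single value of 3.19.

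NLRC5 showed the clearest rise. Its gene lies at chr16:56989485-57083531 on the plus strand, and the promoter peak had its summit 5′ of the canonical start, in an annotated untranslated region, at -54 to -30 bp in the 7 libraries that had one. In WT_4 the fold enrichment was 12.3 untreated and 37.2 after IFNγ. In WT_5 it was 17.5 and 62.6. In KO_C5 it was 15.9 and 34.8, and in KO_D2 no peak was called untreated and the fold enrichment was 27.1 after IFNγ. The 4 IFNγ libraries all stood above the 4 untreated libraries, in both genotypes. Within its list the peak moved from percentile 44.05 to 84.1 in WT_4, from 65.8 to 91.3 in WT_5, from 61.0 to 87.1 in KO_C5 and from no peak to 87.9 in KO_D2.

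The mean fold enrichment of NLRC5 was 11.4 untreated and 40.4 after IFNγ, a difference of 29.0 with the missing peak counted as 0. This was the largest increase among the 14737 genes (rank 1), although 3 genes including NLRC5 fell in the same bin of 28 to 30, and by percentile NLRC5 ranked 6. Permuting the treatment labels exactly, in 70 ways, gave p = 0.0286, two-sided, the smallest this test allows. Adjusted by the Benjamini-Hochberg method over all genes the p was 1. In all, 124 genes had an unadjusted p under 0.05 on the percentile scale and 0 after adjustment. Permuting the labels ignores the pairing of libraries by clone. An exact sign-flip test within clones gave p = 0.125 for NLRC5, the smallest that test allows.

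The fragments behind the NLRC5 peak were recovered from fold enrichment and −log10 p. At the summit 21 fragments were piled up in untreated WT_4, 38 in WT_5 and 48 in KO_C5. After IFNγ there were 69 in WT_4, 119 in WT_5, 129 in KO_C5 and 113 in KO_D2. The treated KO pileups were thus above that of treated WT_4 and lay on either side of that of WT_5, while the local background under it was 2.73 and 3.20 fragments in the treated KO clones and 0.884 and 0.917 in the treated WT clones. Relative to the floor of the background in each library, which was 0.621 to 1.08 fragments, the treated pileup was 111 in WT_4, 155 in WT_5, 142 in KO_C5 and 105 in KO_D2, so the genotypes overlapped on that scale too. The lower fold enrichment of the treated KO clones goes with the higher local background, and its part in the difference was not tested further.

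**Figure D3:**
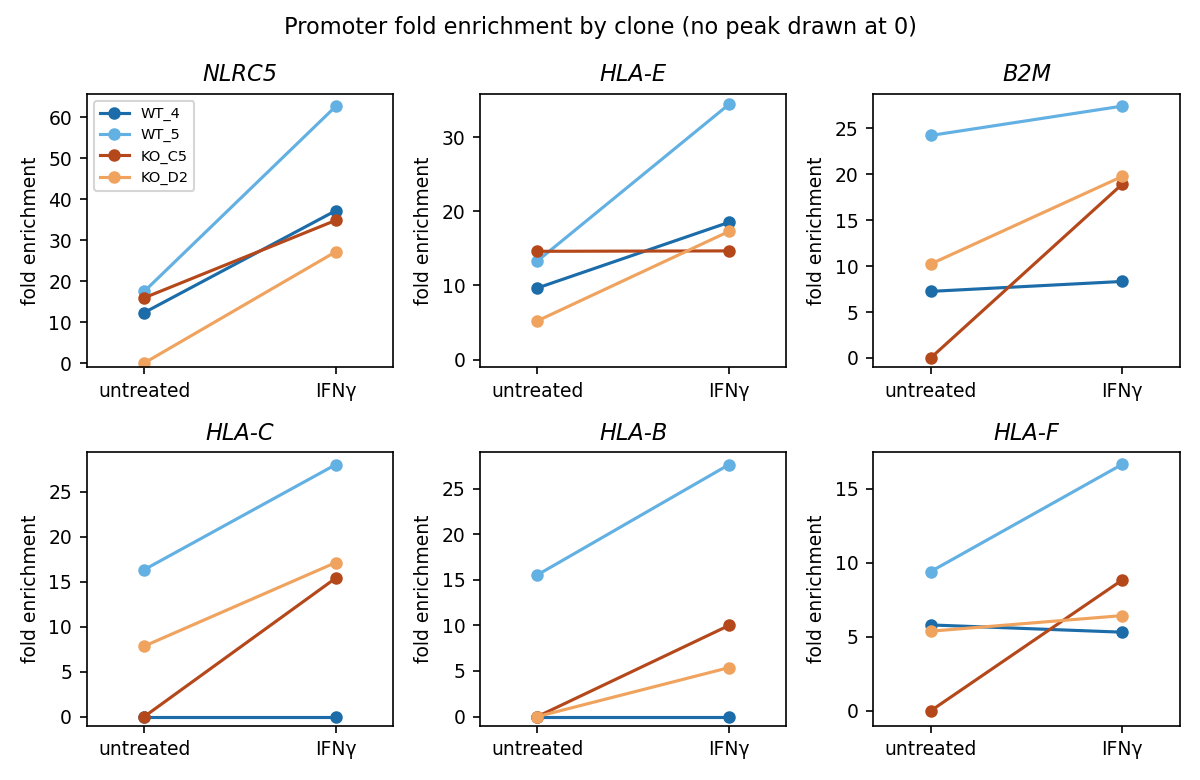
Fold enrichment at 6 promoters before and after IFNγ, 1 line per clone, with no peak drawn at 0 and a separate vertical axis in each panel. All 4 lines rise for NLRC5, while the KO_C5 line for HLA-E is flat, from 14.6 to 14.7.

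HLA-E presents signal peptides of other class I chains to natural killer cells. Its gene lies at chr6:30489509-30494194 on the plus strand, with peak summits between -213 and -77 bp of the start. The fold enrichment was 9.66 in WT_4, 13.3 in WT_5, 14.6 in KO_C5 and 5.24 in KO_D2 untreated. After IFNγ it was 18.5, 34.4, 14.7 and 17.3 in the same order. The 4 IFNγ libraries again stood above the 4 untreated ones, with a mean of 21.2 against 10.7 and an exact permutation p of 0.0286 (two-sided, adjusted p = 1). That test ignores the pairing of libraries by clone, and an exact sign-flip test within clones gave p = 0.125. The gap between the treatments rested on a narrow margin in KO_C5, where the fold enrichment moved by 0.0567. Relative to the background floor of its library the KO_C5 pileup was 61.2 untreated and 53.0 after IFNγ, so the groups overlapped on that scale. A second HLA-E site, at -7277 bp from the start and outside any annotated gene, had a peak in both WT_5 libraries and in treated KO_D2, with fold enrichments of 6.88, 9.83 and 6.10.

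NLRC5 and HLA-E were thus 2 of 7 members whose fold enrichment was higher in every IFNγ library, against 0.265% of all genes. By percentile the same genes made 2 of 7, against 0.794%, but for HLA-E the lowest treated and highest untreated values were 58.16 and 58.09. With peaks of −log10 q of at least 3, of fold enrichment of at least 4 or in lists of equal length, HLA-E overlapped by percentile (exact permutation p = 0.0571) and NLRC5 was the 1 member left. With B2M they made 3 of 7 members that rose within each of the 4 clones, against 6.81% of all genes by fold enrichment and 14.2% by percentile. Across the members the median change was 8.19 in fold enrichment and 27.6 in percentile, beside -0.198 and 2.81 over all genes. In lists of equal length the median percentile change was 15.6 for the members and -1.40 over 13435 genes.

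**Figure D4:**
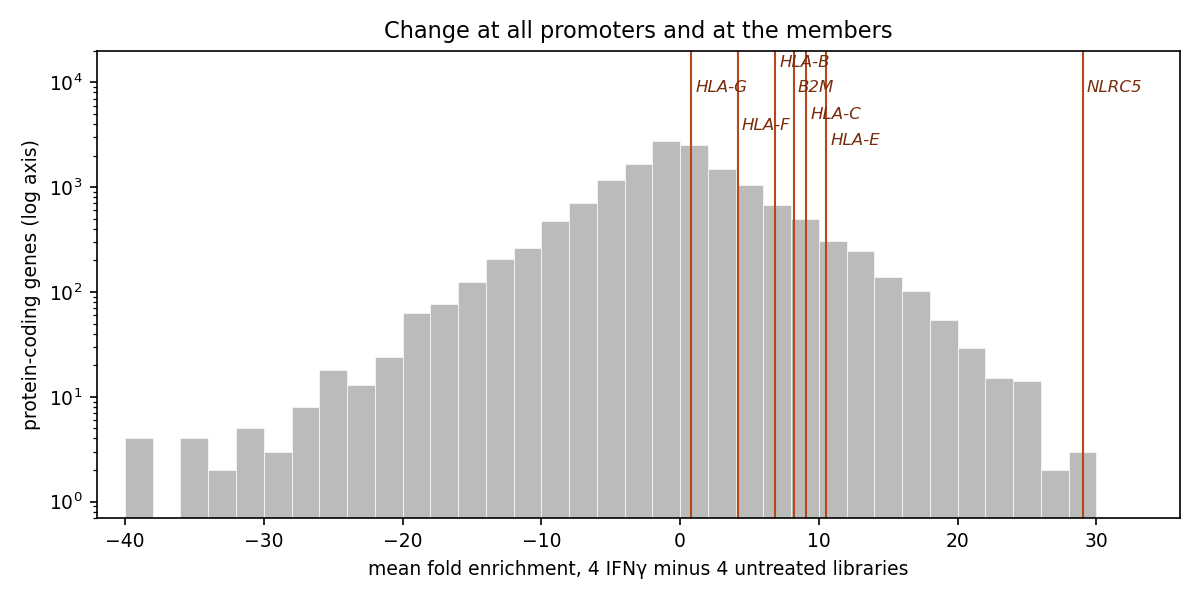
Change in mean fold enrichment, 4 IFNγ minus 4 untreated libraries, for 14737 protein-coding genes in bins of 2 (grey bars, log axis for the number of genes), with the 7 members as vertical lines. NLRC5 sits in the highest filled bin at 29.0, and HLA-E, HLA-C, B2M and HLA-B lie between 6.87 and 10.5.

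B2M lies at chr15:44711358-44718851 on the plus strand, and its promoter window also holds a start of PATL2. The fold enrichment was 7.25 in WT_4, 24.2 in WT_5 and 10.2 in KO_D2 untreated, and no peak was called in KO_C5. After IFNγ it was 8.33 in WT_4, 27.4 in WT_5, 18.9 in KO_C5 and 19.8 in KO_D2. The treated and untreated groups overlapped (p = 0.257 by fold enrichment and 0.2 by percentile, exact permutation tests). The peaks did not all cover the same bases. In untreated WT_4 the peak ran over chr15:44711679-44712104 with its summit 435 bp downstream of the start, while in the other 6 libraries the summit lay between -75 and -12 bp. After IFNγ the WT_4 summit lay at -65 bp, and the peaks of WT_5 and KO_D2 widened from 375 to 851 bp and from 313 to 885 bp. A further site in the flank of B2M lay at a start of TRIM69, a ubiquitin ligase gene, and was open in all 8 libraries with fold enrichments of 6.36 to 42.1.

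The classical heavy chains were open in one WT clone and not in the other. At HLA-C (chr6:31268749-31272130, minus strand) no promoter peak was called in either WT_4 library or in untreated KO_C5. The fold enrichment rose from 16.3 to 28.0 in WT_5 and from 7.84 to 17.1 in KO_D2, and it was 15.4 in treated KO_C5. The summits lay at -67 to -19 bp, at the start itself. Counting no peak as 0, the means were 6.05 untreated and 15.1 after IFNγ (p = 0.286, exact permutation test). ELP3, TMEM101 and ZNF107 had the percentiles nearest those of HLA-C among 190 other genes with a peak in the same libraries, of 14736.

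At HLA-B (chr6:31353872-31367067, minus strand) the promoter peak was not at the canonical start. It lay at chr6:31366815-31367239, around alternative annotated starts with the strongest summit at -9861 bp, where the annotation also has an exon of the pseudogene DHFRP2 and a start of the lncRNA gene ENSG00000285647. The fold enrichment there was 15.5 and 27.6 in untreated and treated WT_5, 10.0 in treated KO_C5 and 5.37 in treated KO_D2, and neither WT_4 library had a peak. Within 1 kb of the canonical start the only peak was that of treated KO_D2 at chr6:31356442-31356688, in an exon, with a fold enrichment of 8.18. The canonical promoter printed above therefore had no peak over its NF-Y boxes in any library. BET1 and ZNF35 had the nearest percentiles among 230 other genes with a peak in the same libraries.

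HLA-B and HLA-C made 2 of 7 members with a peak in both WT_5 libraries and in neither WT_4 library, against 5.64% of all genes. HLA-B was 1 of 7 members gained with IFNγ in the KO clones, with a peak in both treated and neither untreated library, against 3.09% of all genes. That gain belongs to the distal starts, since at the canonical start no member was gained in KO. In the WT clones 0 of 7 members were gained, against 0.149% of all genes. Low-quality alignments had been removed before peak calling, and near-identical promoters can lose reads at that step, the extent of which was not tested.

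**Figure D5:**
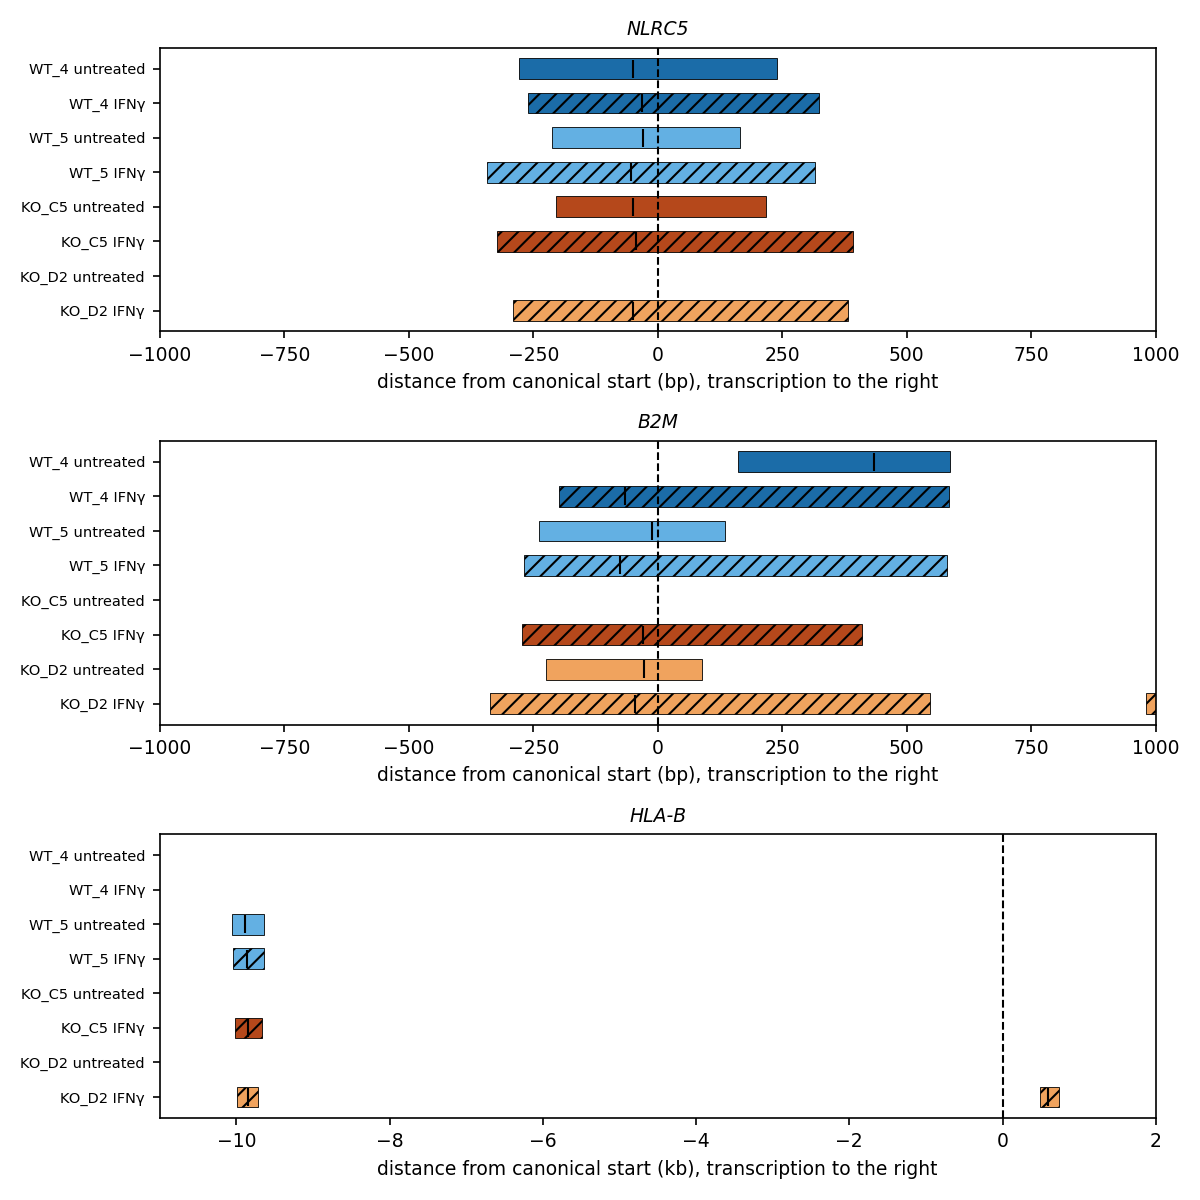
Peaks of each library around the canonical starts of NLRC5 and B2M (distance in bp) and HLA-B (distance in kb), with plain bars for untreated and hatched bars for IFNγ libraries, colours by clone and a tick at each summit. The NLRC5 peaks share 1 position, the untreated WT_4 peak of B2M lies downstream of the others, and all but 1 of the HLA-B peaks lie far upstream of the start, with summits near -9861 bp.

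HLA-F was open in 7 libraries, among them both of WT_4. It lies at chr6:29722775-29738528 on the plus strand and shares its promoter window with a start of ENSG00000225864. Its fold enrichment went from 5.80 to 5.31 in WT_4, from 9.40 to 16.6 in WT_5 and from 5.37 to 6.43 in KO_D2, and it was 8.83 in treated KO_C5 against no peak untreated. The groups overlapped (p = 0.314, exact permutation test). HLA-G, a chain known from the placenta, lies at chr6:29826967-29831125 on the plus strand and had 1 peak, in treated KO_D2, with 9 fragments at the summit and a percentile of 0.413. That summit lay in an intron of HLA-G and an exon of the pseudogene HCG4P8, 493 bp downstream of the canonical start.

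Between genotypes no member separated. In fold enrichment 0 of 7 members were higher in all WT than in all KO libraries, against 18.4% of all genes, and by percentile 0 of 7, against 5.99%. The median WT minus KO difference of the members was 4.58 in fold enrichment, beside 6.80 over all genes, and 7.99 in percentile, beside 4.33. NLRC5 had a mean fold enrichment of 32.4 in WT and 19.5 in KO clones (p = 0.667, exact permutation test over 6 assignments of the clones, which cannot go below 0.333). The change with IFNγ was larger in both KO clones than in both WT clones, by percentile, at HLA-B, HLA-C, HLA-F and B2M, each with p = 0.333, the smallest this exact test allows. These were 4 of 7 members, against 35.6% of all genes, and the median difference in change (WT minus KO) was -28.2 for the members and -5.96 for all genes. These changes include steps from no peak, counted as 0, to a called peak. Untreated KO_C5 had no peak at any of these 4 genes, and untreated KO_D2 had none at HLA-B. Neither WT_4 library had a peak at HLA-B or HLA-C, so the change there was 0. At B2M the percentile rose by 8.41 in WT_4 and 0.825 in WT_5, and by 70.8 in KO_C5, from no peak, and 37.7 in KO_D2. In fold enrichment that order held at B2M alone, 1 of 7 members against 7.19% of all genes, where the change in WT minus that in KO was -12.1 (exact permutation p = 0.333), and it was lost at HLA-B, HLA-C and HLA-F. The median difference in change was then -1.60 for the members and -1.99 for all genes.

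The wider class I pathway was read in 4 gene lists. Among other NLR proteins 6 of 8 genes had a promoter peak in some library, and CIITA was the 1 gene gained in both genotypes. Over all genes 3.09% were gained in KO and 0.149% in WT clones. CIITA had no peak in any untreated library, and after IFNγ its fold enrichment was 6.90 in WT_4, 11.6 in WT_5, 6.53 in KO_C5 and 5.81 in KO_D2. These are the strongest peaks within 1 kb of any annotated start, so the separate CIITA promoters pI, pIII and pIV are not told apart. By FAIRE with qPCR the study reported lower accessibility in the knockout at pIII, and no effect at pI and pIV. In its FAIRE-seq tracks after IFNγ, the study also described peaks at pIII in WT cells that the knockout cells lacked. The CIITA values lay below the 27.1 to 62.6 of treated NLRC5, and NLRC5 unlike CIITA was open before treatment in 3 of 4 clones. NOD2, a sensor of bacterial cell wall fragments, was gained in the KO clones, with 7.01 in KO_C5 and 5.15 in KO_D2, and also had a peak of 11.7 in treated WT_5.

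Of 14 peptide loading and processing genes 13 had a promoter peak and 10 had one in all 8 libraries. ERAP1, an aminopeptidase that trims peptides, was the 1 gene with percentiles higher in all IFNγ libraries, at 63.1 to 69.7 against 7.73 to 59.4. Its fold enrichments overlapped, with 18.0 in untreated WT_4 and 11.6 in treated KO_D2. Over all genes 0.794% had percentiles higher in every IFNγ library. Of 13 factors of class I promoters, all of which had a peak, CREB1, a factor that binds the CRE, had percentiles that were higher in every IFNγ library. It stood at 98.55 to 99.14 after IFNγ and 97.32 to 98.48 untreated, a narrow gap, while its fold enrichments overlapped. IRF2, an interferon regulatory factor, and RELA, an NF-kB subunit, had percentiles that were higher in every WT than in every KO library, at 86.8 to 93.6 against 65.2 to 86.2 for IRF2 and at 81.5 to 84.2 against 58.1 to 73.1 for RELA. As given above, 5.99% of all genes showed that pattern. Of 12 class I related genes 10 had a peak and RAET1E, a ligand of the NKG2D receptor, was gained in the KO clones, with fold enrichments of 20.0 and 14.1. Of all genes 3.09% were gained in KO clones. RAET1E was also open in both WT_5 libraries, at 6.94 and 18.5, and in neither WT_4 library, as HLA-B was. The median change in percentile was 8.68 for class I related genes, 12.0 for peptide loading, 3.26 for the factors and 9.85 for NLR proteins, beside 27.6 for the 7 members and 2.81 for all genes.

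Away from the promoters the NLRC5 locus had few peaks. A site in an intron 39835 bp into the gene was open in both WT_5 libraries alone, with fold enrichments of 6.64 to 7.09. Sites at -3793 bp and 25290 bp from the start had 1 peak each, in treated WT_5 and treated KO_D2. The site beyond the 3′ end at the start of CPNE2, a neighbouring gene, was open in all 8 libraries at 6.98 to 17.8, and there the untreated and treated libraries overlapped.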

How the data were processed

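FAIRE-seq libraries of 4 U2OS clones, untreated and after IFNγ, were represented by 8 lists of peaks. The authors trimmed the reads with Trimmomatic, aligned them to GRCh38 with Bowtie2 2.2.5, dropped alignments with a mapping quality below 30 using SAMtools 1.14 and called peaks with MACS2 2.2.7.1 for each library. Control and duplicate handling are not given in the sources used here. The deposited fold enrichment is a ratio, and the deposited −log10 p and −log10 q are those of the peak caller; the score column was not used. Read totals were not analysed here.

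Peaks on chromosomes 1 to 22 and X were joined to GENCODE 44 starts with Python 3.11.15, numpy 2.4.6, pandas 2.3.3 and scipy 1.17.1; the strongest peak by −log10 p within 1000 bp represented a gene. Summit fragments and local background were solved from the Poisson formula of the caller, within 0.01 for 100% of peaks with −log10 p under 250. The floor of the background was the lowest value, to 2 decimals, shared by at least 1% of peaks. Treatment was tested by exact permutation over 70 assignments and genotype over 6, with Benjamini-Hochberg adjustment over 14737 genes. On simulated lists of 4000 genes 100% of 200 planted promoters reached the smallest p. The planted promoters had a peak in every IFNγ list and in no untreated list. This outcome was therefore fixed in advance and checks the code alone, not the power of the test. The labels tie each treated library to its untreated clone, with a correlation of deviations of 0.646 in WT and 0.342 in KO clones; WT and KO share only a number. Genes outside the 7 members were named where gained, lost or not overlapping between groups, or nearest in percentile to a member; a few that meet this rule are not reported here. The members and lists were chosen with earlier results of these data known; the shared WT_5 pattern, the count of rises in 4 clones and GAANNGAAA were added after the values were seen.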

Additional observations from a re-analysis of the deposited data

How the results depend on the processing

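The percentile change with IFNγ reversed at no member in 126 alternatives (other peak filters, windows, starts, rankings, fold enrichment itself, the replicate block and libraries left out), with 4 of them at 0 for HLA-G, but its size moved. Not all of these could reverse. The replicate block keeps the same mean, and HLA-G had a peak in 1 treated library alone. The narrower window and the rule that the summit lie inside the window gave the main values at every member. With equal list lengths the change went from 18.6 to 1.88 at HLA-F, from 24.8 to 9.08 at HLA-B and from 27.8 to 15.6 at HLA-C, and with the canonical start alone to 7.22 at HLA-B. At NLRC5 it stayed within 30.7 to 52.6 and moved by over 1.5 times in 0 of 17 alternatives. By percentile 2 members did not overlap between treatments, and 1 (NLRC5) with −log10 q of at least 3, fold enrichment of at least 4 or equal list lengths. The percentile difference between WT and KO was less stable, reversing in 12 of 126. With equal list lengths it became -2.65 at HLA-C, -1.66 at HLA-E and -3.85 at B2M; with the canonical start alone -7.22 at HLA-B; with percentiles of fold enrichment -4.72 at HLA-C. With 1 library left out, the clone it came from was represented by 1 treatment alone. The difference between WT and KO then mixes genotype with treatment, so these values do not check the genotype difference by itself. That difference ran from -13.7 (without untreated KO_C5) to 14.4 at HLA-C, where it was also -10.7 without untreated KO_D2 and -2.43 without treated WT_5. It ran from -10.3 (without untreated KO_C5) to 25.0 at B2M, with -2.07 without untreated KO_D2, from -8.44 to 24.4 at HLA-E and from -9.69 to 34.3 at NLRC5, both lowest without untreated KO_D2 and highest without treated KO_D2.

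With the replicate block, each clone against itself, the NLRC5 change of 44.9 percentile points had p = 0.125 in an exact sign-flip test, the smallest that 4 clones allow. The count of members gained in KO, 1 in the data as deposited, was 0 at the canonical start and 1 to 4 without 1 library: 2 without untreated KO_C5 or treated KO_C5 and 4 without untreated KO_D2. With all annotated genes as background 903 of 22301 were gained in KO in place of 456 of 14737, and 176 in place of 117 had percentiles higher in every IFNγ library. The cause of these shifts was not tested, beyond fewer libraries or more genes entering the count. Depth limits every absence, as a peak below the caller's threshold is not listed.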
